A study of Homo sapiens with 27 samples.

Results

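Control cells of 2 human prostate cancer lines, 22Rv1 and DU145, were compared to describe how an androgen-responsive line and a line that grows without androgen signalling differ in their transcripts. The comparison used the 6 libraries made from cells with the control guide RNA (gRNA 1), 3 from each line, of 27 libraries in the series. Libraries were chosen by their labels, and their values played no part in the choice. The other libraries came from PC3 cells and from cells with CRISPR guides against RIPK2, the kinase that relays signals from the peptidoglycan sensors NOD1 and NOD2. Total RNA was read by strand-specific mRNA sequencing, and the labels give the genotype of both control groups as WT. Both control groups carry a guide RNA, so neither is an untouched culture. Growth medium, androgen content and whether a control population is a clone or a pool are not given in the sources used here. Each side is 1 cell line, so androgen response cannot be told apart from any other difference between the lines. Nothing states that the 3 libraries of a line came from separate cultures, so the p-values measure only the spread between these libraries.

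Androgens are steroid hormones that, in prostate epithelium, switch on genes of secretion such as the kallikreins. 22Rv1 was grown from a xenograft of a prostate tumour that relapsed after castration. DU145 was derived from a brain metastasis and is used as a model of prostate cancer that does not depend on androgen.

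The control libraries held 18665584 to 18908930 counts in 22Rv1 and 20003797 to 20118973 in DU145. Correlation of log2 CPM (read counts divided by the scaled library size and put on one common scale) across genes was 0.993 to 0.994 between 22Rv1 replicates and 0.997 between DU145 replicates. Replicate 1 of the 22Rv1 control stood apart in the share of mitochondrially encoded genes, at 0.515% against 1.24 to 1.32% in the other 5 libraries. Replicate 2 stood apart in gene levels, with a chi-square per degree of freedom of 19.7 and 16.2 against the other 22Rv1 replicates, which gave 7.46 between them. Markers of blood, endothelial and stromal cells (28 genes) summed to 115 to 131 CPM in 22Rv1 and 18.6 to 18.8 CPM in DU145. Nearly all of the 22Rv1 sum was ALB, serum albumin, at 107 ± 9.25 CPM (SD, n = 3); without it the sums were 13.3 to 14.9 and 18.5 to 18.8 CPM. The defining leukocyte marker PTPRC was at 0 to 0.0543 CPM in all 6 libraries. Of these markers 6 were tested, 3 of them higher in 22Rv1 and 2 higher in DU145 by the rule given next, and 4 markers had no count in any of the 6 libraries.

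Most genes differed between the lines. Of 15494 genes tested with edgeR's quasi-likelihood test, 12712 (82.0%) had a Benjamini-Hochberg adjusted p below 0.05, with 6538 (42.2%) higher in 22Rv1 and 6174 (39.8%) higher in DU145. Since so many genes pass, a gene is called here only if it also differed by at least 2-fold. By this rule 6899 genes (44.5%) were called, 3398 higher in 22Rv1 (21.9% of all tested) and 3501 higher in DU145 (22.6%). Counts of called list members given below are to be read beside these shares. Without 22Rv1 replicate 1, 12593 genes had an adjusted p below 0.05 and 7115 were called; without 22Rv1 replicate 2, these counts were 13385 and 7062. The median log2 fold change over all tested genes, 22Rv1 minus DU145, was 0.04. A count of 0 allows for up to 3 counts, and this floor per library was 0.146 to 0.164 CPM, and covers counting error only. A total of 826 genes called higher in 22Rv1 lay at or under it in every DU145 library, and 646 called higher in DU145 lay there in every 22Rv1 library; folds of such genes are lower bounds. In 13004 genes (83.9%) the libraries of the lines did not overlap. All CPM values are scaled by library size and not by gene length, so they are compared between libraries and not between genes.

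The marker genes KLK3 and VIM differed as the labelled cell lines are known to. KLK3, which encodes prostate-specific antigen (chr19:50854915-50860764, GRCh38, plus strand), was at 20.3, 19.3 and 21.9 CPM in 22Rv1 and at 0 in all DU145 libraries, at least 140.1-fold higher. VIM, the intermediate filament vimentin of mesenchymal cells (chr10:17228259-17237593, plus strand), ran the other way, with 13.8, 14.4 and 12.5 CPM in 22Rv1 and 611, 642 and 641 CPM in DU145. On the log2 scale it differed by -5.54 (SE 0.08, edgeR's adjusted p was 6.85e-14). Both genes separated the lines with no overlap, as did 83.9% of all tested genes.

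Transcription factors that define prostate luminal cells were higher in 22Rv1. Of 19 tested members of a list of prostate lineage factors and steroid receptor cofactors, 12 were higher in 22Rv1 and 2 higher in DU145, and the median log2 fold change was 2.61. HOXB13, a homeobox factor of the prostate, was at 377, 316 and 365 CPM in 22Rv1 and at 0, 0 and 0.0984 CPM in DU145, at least 2411-fold higher. SPDEF, an ETS factor of secretory epithelium, was at 84.3 ± 12.4 CPM in 22Rv1 and at 0 in each DU145 library. GRHL2, a keeper of epithelial identity, was at 120 ± 2.97 against 0.0488 ± 0.0486 CPM. These 3 genes were thus at or under the floor in DU145, which was not the case for every lineage factor. FOXA1, a pioneer factor that opens chromatin, was at 439, 490 and 436 CPM in 22Rv1 and still at 56.5, 61.8 and 63.2 CPM in DU145, a log2 fold change of 2.91 (SE 0.08). GATA2, a zinc finger factor, differed by 3.88 on the log2 scale, with a DU145 mean of 31.9 CPM. Among cofactors, the corepressor NCOR1 was higher in 22Rv1 (2.29 on the log2 scale).

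Androgen-induced genes were higher in 22Rv1 in 26 of 35 tested members and higher in DU145 in 5, and the median log2 fold change was 3.04. The kallikrein proteases KLK2 and KLK4 and the serine protease gene TMPRSS2 were among them. KLK2 was at 94.4, 99.4 and 112 CPM in 22Rv1 and at 0 in DU145, and KLK4 at 639, 474 and 629 against 0.194 to 0.344 CPM. TMPRSS2 was at 80.2 ± 4.33 CPM in 22Rv1 and 0.114 ± 0.0291 CPM in DU145, at least 548-fold higher. PMEPA1, a brake on TGF-beta signalling, was at 930 ± 43.6 against 3.35 ± 0.386 CPM (log2 fold change 8.11, SE 0.10). FKBP5, a chaperone of steroid receptors, was at 834, 902 and 801 CPM in 22Rv1 and 121, 118 and 111 CPM in DU145, a smaller difference of 2.86 on the log2 scale. The 5 members higher in DU145 were STEAP4, NDRG1, RAB3B, EAF2 and SGK1. NDRG1, also known as a hypoxia and stress gene, was at 21.2 ± 2.6 CPM in 22Rv1 and 173 ± 28.1 CPM in DU145. SGK1, a kinase that glucocorticoids also induce, was at 1.2 ± 0.33 and 4.88 ± 0.279 CPM.

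KLK3 and KLK2 lie next to each other and arose by duplication, so reads can be shared between them and their separate levels are uncertain. Their upstream sequences are shown because they hold a described androgen response element. The letters in capitals are a 14-base stretch within the proximal androgen response element described for KLK3, and each line runs 5′ to 3′ on the plus strand, taken from the RefSeq promoter table (GRCh38.p14) at chr19:50854706-50854799 and chr19:50873224-50873317.
KLK3: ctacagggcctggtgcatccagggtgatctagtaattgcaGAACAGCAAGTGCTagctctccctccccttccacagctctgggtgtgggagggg
KLK2: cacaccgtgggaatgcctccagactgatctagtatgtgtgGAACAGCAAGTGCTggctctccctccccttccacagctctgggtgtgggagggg
The stretch lies 169 to 156 bases before the KLK3 start and 175 to 162 bases before the KLK2 start. Over the 250 bases before their starts, 205 of 241 aligned bases were identical (85.1%). GAACAGCAAGTGCT was cut from the KLK3 window itself, so its match there was fixed in advance. It leaves out the base before it, which is a in KLK3 and g in KLK2, so the KLK2 match depends on that cut. Searched on both strands, it occurred in 2 of 35116 promoter windows of the table, those of KLK3 and KLK2. Each window searched held the 250 bases before a start and some bases after it. The shorter half-site AGAACA occurred in 14.8% of all these windows and in 6 of 47 windows of androgen-induced genes (12.8%). Those 47 windows belong to 28 genes matched by symbol.

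**Figure D1:**
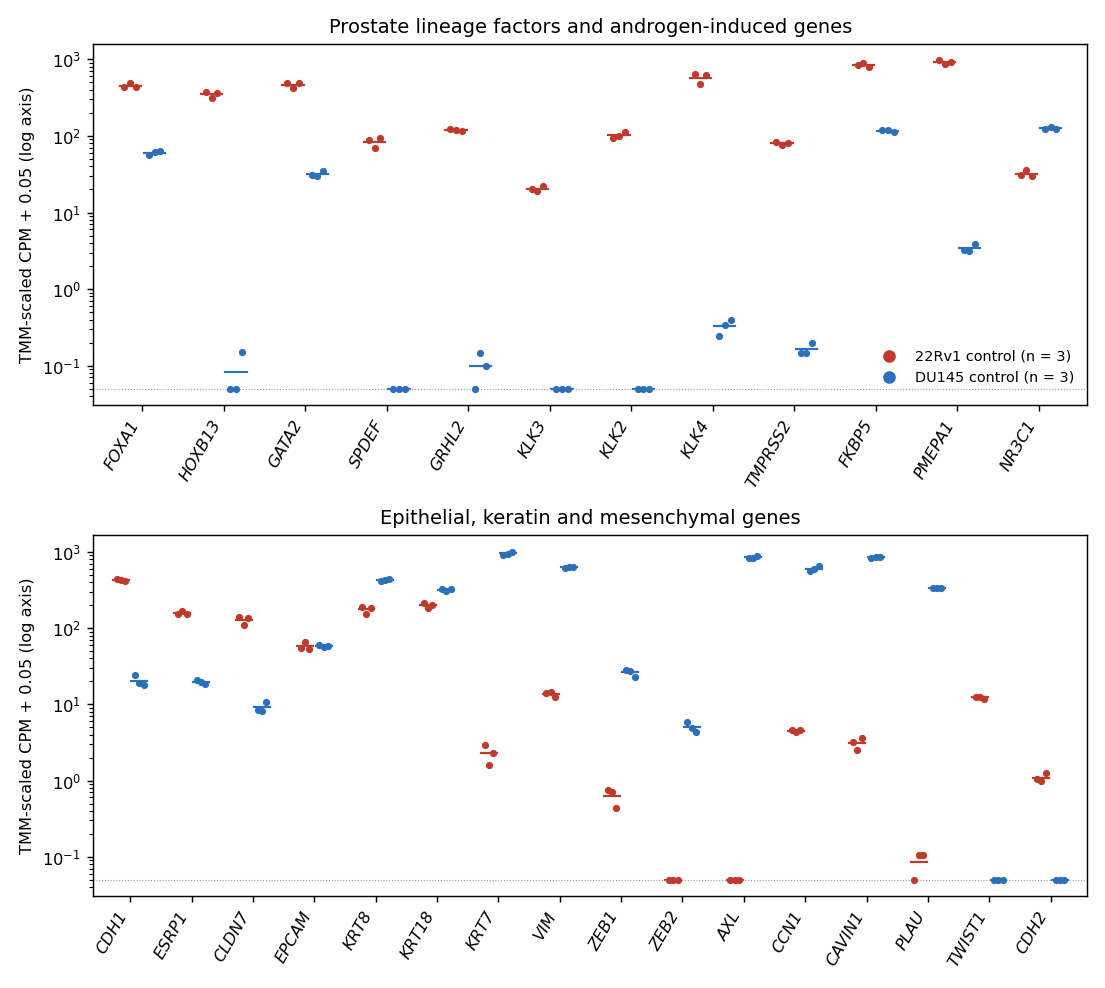
Levels of 28 genes in the 6 control libraries (each point 1 library, each bar the mean of 3), as CPM plus an offset of 0.05 on a log axis, with lineage and androgen-induced genes above and epithelial, keratin and mesenchymal genes below. SPDEF, KLK3 and KLK2 lie on the dotted line of 0 counts in all DU145 libraries, as ZEB2 and AXL do in 22Rv1, while EPCAM and KRT18 lie close together.

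Steroid-handling enzymes gave no comparable split by the 2-fold rule. Of 14 tested, 3 were higher in 22Rv1 (21.4%, beside 21.9% of all genes), 2 higher in DU145 (14.3%, beside 22.6%) and 9 neither. At an unadjusted edgeR p below 0.05 with no fold limit, 9 were higher in 22Rv1 and 3 higher in DU145. The median log2 fold change was 0.66. HSD3B1, which turns adrenal precursors into stronger androgens, was at 5.86 ± 0.389 CPM in 22Rv1 and at 0 in DU145. UGT2B15, which inactivates androgens by glucuronidation, was at 12.7 ± 0.894 CPM against 0, although near-identical family members make its count uncertain. SRD5A1, the 5-alpha reductase that makes dihydrotestosterone, did not differ beyond its error, at 30.2 ± 1.82 and 30.3 ± 0.161 CPM (log2 fold change -0.00, SE 0.08, edgeR adjusted p 0.973). AKR1C3, an enzyme that makes testosterone from androstenedione, was higher in DU145 by 2.02 on the log2 scale (-2.02, SE 0.14), with the same uncertainty from its paralogs.

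The wider nuclear receptor family divided evenly, with 12 of 36 tested members higher in 22Rv1, 14 higher in DU145 and a median log2 fold change of 0.09. NR3C1, the glucocorticoid receptor, which mediates cortisol signals, was at 30.4, 36.3 and 30.1 CPM in 22Rv1 and 124, 132 and 125 CPM in DU145 (log2 fold change -1.98, SE 0.09). PPARG, the adipocyte lipid sensor, was at 0.0908 ± 0.0625 CPM in 22Rv1 and 83.8 ± 3.1 CPM in DU145, at least 512-fold higher in DU145. RARB, a retinoic acid receptor, was at 8.18 ± 0.74 CPM in 22Rv1 and at 0 in DU145. The mineralocorticoid receptor NR3C2 was also higher in 22Rv1, by 4.71 on the log2 scale. ESR1 and PGR, the oestrogen and progesterone receptors, were at no more than 0.246 CPM in any library and were not tested.

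Epithelial genes were higher in 22Rv1 and mesenchymal genes higher in DU145, with exceptions on both sides. Of 34 tested genes of epithelial junctions and splicing, 18 were higher in 22Rv1 and 4 higher in DU145 (median log2 fold change 1.22). CDH1, the adhesion protein E-cadherin, was at 441, 427 and 417 CPM in 22Rv1 and 24.1, 18.9 and 18.1 CPM in DU145, a log2 fold change of 4.39 (SE 0.11). The epithelial splicing factor ESRP1 was at 159 ± 9.06 against 19.6 ± 0.981 CPM, and the ETS factor EHF at 423 ± 19.8 against 0.0162 ± 0.028 CPM. DU145 thus still held CDH1 and ESRP1 counts well above the floor. EPCAM, a surface protein of most carcinomas, did not differ beyond its error, at 57.8 ± 6.36 and 58.7 ± 1.85 CPM (log2 fold change -0.02, SE 0.09, edgeR adjusted p 0.817). The epithelial genes higher in DU145 included CLDN1, DSC2 and ELF3. CLDN1, a tight junction claudin, was at 286 ± 5.75 CPM in DU145 and 0.364 ± 0.0614 CPM in 22Rv1.

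Of 39 tested mesenchymal and migration genes, 28 were higher in DU145 and 6 higher in 22Rv1, and the median log2 fold change was -4.31. AXL, a receptor kinase tied to drug resistance and migration (chr19:41219203-41261766, plus strand), had no count in any 22Rv1 library and was at 845, 838 and 895 CPM in DU145, at least 5249-fold higher. ZEB1, a repressor of CDH1, was at 0.582 ± 0.175 CPM in 22Rv1 and 26.1 ± 2.75 CPM in DU145, and its relative ZEB2 at 0 and 4.99 ± 0.802 CPM. CCN1 and ANKRD1, targets of the YAP coactivator, were at 604 ± 38.5 and 164 ± 0.623 CPM in DU145, against 4.47 ± 0.163 and 0 CPM in 22Rv1. Caveolae genes moved the same way, with CAVIN1 at 3.09 ± 0.559 against 848 ± 21.1 CPM and CAV1 at 25.8 ± 2.04 against 215 ± 7.93 CPM. The 6 genes higher in 22Rv1 were TWIST1, CDH2, PRRX1, SERPINE2, CALD1 and TNC. TWIST1, a mesenchymal transcription factor, was at 12.6, 12.5 and 11.7 CPM in 22Rv1 and at 0 in DU145, whereas its paralog TWIST2 was at 0 in 22Rv1 and 13.7 ± 1.89 CPM in DU145. FN1, fibronectin, did not differ beyond its error, at 78.7 ± 6.47 and 74.6 ± 4.16 CPM (edgeR adjusted p 0.391).

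In bulk RNA, more cells of a kind and more RNA per cell cannot be told apart, which bears on genes such as VIM in 22Rv1 and CDH1 in DU145 that were low but above the floor.

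Keratins were mainly higher in DU145. Of 19 tested keratins and basal cell genes, 15 were higher in DU145 and 1 higher in 22Rv1, and the median log2 fold change was -3.81 (-3.15 with genes at the floor set at their bound). The luminal keratin gene KRT8 was at 189, 156 and 185 CPM in 22Rv1 and 418, 425 and 444 CPM in DU145, a log2 fold change of -1.28 (SE 0.08). KRT18, its partner, differed by -0.68 and did not reach 2-fold. KRT7, a keratin of simple epithelia, was at 2.9, 1.57 and 2.24 CPM in 22Rv1 and 906, 945 and 1012 CPM in DU145. The basal markers KRT5, KRT14 and TP63 were at no more than 0.0543 CPM in any library, so DU145 did not show the defining basal genes. LAMB3, a chain of the laminin that anchors epithelia, was at 231 ± 13.7 CPM in DU145, against 0.527 ± 0.125 CPM in 22Rv1. SFN, the stratifin adaptor, was the 1 member higher in 22Rv1.

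The matrix receptors and the proteases that cut matrix were mainly higher in DU145. Of 27 tested integrins and laminins, 17 were higher in DU145 and 4 higher in 22Rv1, the latter being ITGA4, ITGA9, ITGA11 and ITGB8. ITGA3, a laminin receptor chain, was at 20, 16.7 and 20 CPM in 22Rv1 and 794, 768 and 856 CPM in DU145, and ITGB1, the shared beta chain, at 312 ± 27.4 against 1369.7 ± 45.4 CPM. Of 22 tested genes of plasminogen activation and metalloproteinases, 13 were higher in DU145 and 4 higher in 22Rv1. PLAU, the urokinase activator of plasminogen, had 0, 0.0543 and 0.0546 CPM in 22Rv1 and 331, 338 and 336 CPM in DU145, at least 2048-fold higher, and its receptor PLAUR was at 3.75 ± 0.0695 against 74 ± 1.87 CPM. TIMP1, a metalloproteinase inhibitor, did not differ beyond its error (edgeR adjusted p 0.639), while TIMP2 was at 5.58 ± 0.187 against 218 ± 7.18 CPM. Higher in 22Rv1 were the membrane protease HPN (hepsin), ADAMTS1, MMP16 and MMP9. HPN was at 64.2 ± 10 CPM in 22Rv1, against 0, 0 and 0.197 CPM in DU145, and ADAMTS1 at 104 ± 2.47 CPM against 0 in DU145.

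**Figure D2:**
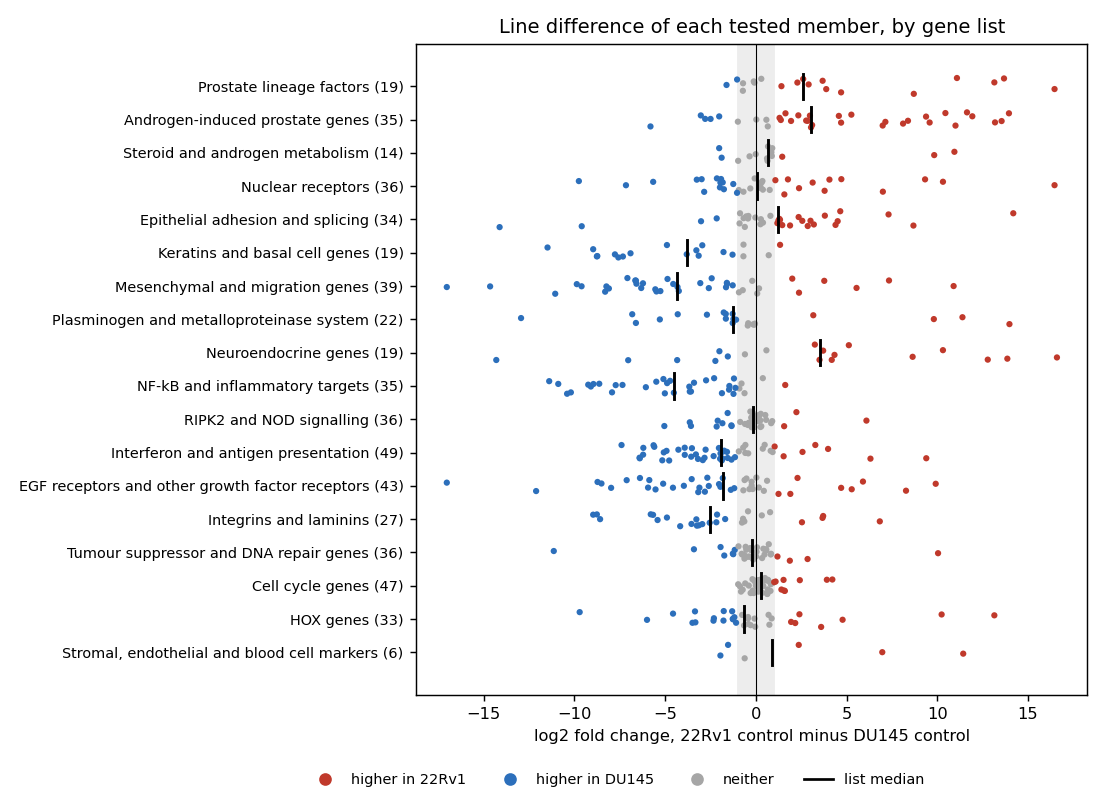
Log2 fold change (22Rv1 control minus DU145 control) of each tested member of 18 gene lists, with the number tested in brackets; red and blue points were called higher in 22Rv1 or in DU145, grey points neither, and black bars mark list medians. The shaded band is a difference under 2-fold; NF-kB targets (median -4.51) and mesenchymal genes (-4.31) lie far to the left and androgen-induced genes (3.04) to the right, while cell cycle genes (0.30) stay near 0. Points of genes at the floor in 1 line show fitted values, which are not bounds.

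Genes of neuroendocrine cells were split, with 11 of 19 tested members higher in 22Rv1, 6 higher in DU145 and a median log2 fold change of 3.51 (3.25 with genes at the floor set at their bound). SYT4, a vesicle protein, was at 2138, 2535 and 2059 CPM in 22Rv1 and at 0, 0 and 0.0492 CPM in DU145, at least 15337-fold higher. SRRM4, a neural splicing factor, was at 338 ± 14.3 against 0.0162 ± 0.028 CPM, and SCG3, a granin of secretory granules, at 49.5 ± 6.52 against 0.0326 ± 0.0282 CPM. The diagnostic marker SYP (synaptophysin) was at 94.8 ± 5.04 against 7.23 ± 0.67 CPM. However, of the defining genes, CHGA held no more than 3 counts (0.164 CPM) in any library and INSM1 had none in all 6. On the DU145 side, UCHL1, a deubiquitinase of neurons (chr4:41256413-41268455, plus strand), was at 1242, 1163 and 1284 CPM, at least 7513-fold higher than in 22Rv1, whose highest library held 0.109 CPM. NKX2-1, a lung and thyroid factor also seen in small-cell carcinoma, was at 1 ± 0.171 CPM in 22Rv1 and 132 ± 4.3 CPM in DU145.

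NF-kB is a family of transcription factors that turn on cytokines, chemokines and their own inhibitors, and it is the pathway that RIPK2 feeds. Of 35 tested NF-kB and inflammatory targets, 30 were higher in DU145 and 1 in 22Rv1, and the median log2 fold change was -4.51 (-3.66 with genes at the floor set at their bound). IL6, the cytokine interleukin-6, had no count in any 22Rv1 library and was at 12, 11.8 and 12.6 CPM in DU145, at least 74.3-fold higher. The neutrophil chemokine genes CXCL1, CXCL2 and CXCL8 were at 7.51 ± 0.575, 23.3 ± 0.815 and 10.4 ± 0.805 CPM in DU145, against 0, 0.0363 ± 0.0315 and 0.0362 ± 0.0627 CPM in 22Rv1. No library of 22Rv1 overlapped with DU145 in any of these genes, which held for 83.9% of all tested genes. ICAM1, an adhesion protein for leukocytes, was at 1.31, 1.03 and 1.15 CPM in 22Rv1 and 250, 236 and 255 CPM in DU145 (log2 fold change -7.72, SE 0.11). Negative regulators stood with the targets. NFKBIA, the inhibitor that NF-kB induces, was at 55 ± 1.21 against 200 ± 5.14 CPM, and TNFAIP3, the editing enzyme A20, at 0.873 ± 0.106 against 10.9 ± 0.805 CPM. Among the subunits, RELB differed by -5.48 on the log2 scale, while RELA (-0.91) and NFKB1 (-0.79) were higher in DU145 by less than 2-fold. The 1 member higher in 22Rv1, PTGS2, was at 0.764 ± 0.199 and 0.244 ± 0.0473 CPM, both low. TNF and IL1B were at no more than 0.148 CPM in any library.

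Promoter stretches of 4 of these genes are shown because each holds a kappaB motif, the site that NF-kB binds. The motif searched was GGANTTTCC on both strands (N is any base), printed in capitals. Each line runs 5′ to 3′ on the gene's strand, from the RefSeq promoter table (GRCh38.p14), at chr4:73869285-73869353 (plus), chr4:74099234-74099302 (minus), chr4:73740448-73740516 (plus) and chr7:22727098-22727166 (plus).
CXCL1: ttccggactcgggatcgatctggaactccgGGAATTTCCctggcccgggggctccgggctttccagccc
CXCL2: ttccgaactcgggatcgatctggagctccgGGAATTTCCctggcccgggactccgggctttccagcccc
CXCL8: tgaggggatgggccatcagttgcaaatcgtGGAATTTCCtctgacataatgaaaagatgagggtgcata
IL6: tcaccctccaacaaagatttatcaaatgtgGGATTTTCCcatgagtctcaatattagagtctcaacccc
The motif begins 78, 77, 91 and 72 bases before the start of CXCL1, CXCL2, CXCL8 and IL6. Whole windows were searched, which are longer than the stretches printed and also hold some bases after the start. The motif occurred in 1.64% of all 35116 windows and in 18 of 49 windows of listed NF-kB genes (36.7%). Counted by gene, 17 of 34 genes matched by symbol had at least 1 window with it. Of 22 matched genes higher in DU145, 13 held it. The list was written from known NF-kB targets, so the share of genes with the motif is not independent of it.

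Of 36 tested members of a list of RIPK2 and NOD signalling genes, 9 were higher in DU145 (beside 22.6% of all genes), 3 higher in 22Rv1 (beside 21.9%) and 24 neither, and the median log2 fold change was -0.13. The list also held MYC, which was among the 3 higher in 22Rv1. RIPK2 was at 16.2, 18.4 and 16.4 CPM in 22Rv1 and 39.8, 45 and 43.8 CPM in DU145, a difference of -1.33 on the log2 scale (SE 0.09, edgeR adjusted p 2.94e-08). NOD1, the sensor upstream of it, was at 4.18 ± 0.397 and 15 ± 0.416 CPM (log2 fold change -1.84, SE 0.11), and NOD2 at no more than 0.394 CPM in any library. Both RIPK2 and NOD1 separated the lines with no overlap, as did 83.9% of all tested genes. Downstream, IKBKG, the regulatory subunit of the IkB kinase, differed by -2.10, although a near-identical pseudogene makes its count uncertain. XIAP, the ubiquitin ligase that joins RIPK2, was higher in 22Rv1 by 0.85 on the log2 scale, and MAP2K7, a kinase of the JNK branch, by 0.25 (SE 0.08), both under 2-fold. MAP3K7, the kinase TAK1, differed by 0.26. The adaptor partners TAB1, TAB2 and TAB3 did not pass the test (edgeR adjusted p 0.201, 0.0777 and 0.984), although TAB1 passed without 22Rv1 replicate 2 (0.000734) and TAB2 without 22Rv1 replicate 3 (0.0477). MYC, the growth-promoting transcription factor, was at 440, 378 and 395 CPM in 22Rv1 and 85, 82.9 and 89.4 CPM in DU145, a log2 fold change of 2.24 (SE 0.08).

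Interferon and antigen presentation genes were higher in DU145 in 33 of 49 tested members and higher in 22Rv1 in 7, and the median log2 fold change was -1.94. HLA-B and HLA-C, class I heavy chains that show peptides to T cells, differed by -3.52 and -1.87 on the log2 scale, and the less studied HLA-F by -6.21. Reads of these genes are shared among alleles and relatives, so the separate levels are uncertain. B2M, the light chain common to all class I molecules, differed by -0.58 only. The peptide supply genes TAP1 and PSMB8 were at 24.4 ± 3.75 and 4.47 ± 0.365 CPM in 22Rv1, against 95.2 ± 3.46 and 44.1 ± 1.48 CPM in DU145. NLRC5, the transactivator of class I genes, was at 0.564 ± 0.168 against 17.3 ± 0.773 CPM. Of the interferon-stimulated genes, IFIT1, a sensor of viral RNA caps, was at 0.219, 0.217 and 0.219 CPM in 22Rv1 and 36.9, 38 and 38.8 CPM in DU145. The 7 genes higher in 22Rv1 were IFITM1, IFITM2, IFITM3, IFI44L, BST2, DHX58 and PSME1. IFITM3, a membrane protein that blocks virus entry, was at 70.8, 52 and 65.6 CPM in 22Rv1 and 0.68, 0.923 and 0.738 CPM in DU145, and IFI44L at 15.3 ± 2.21 against 0.0164 ± 0.0284 CPM. The 3 IFITM genes are close copies, so their separate counts are uncertain.

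Interferon genes of both directions carried the same kind of element, and 6 of their promoters are shown for that reason. The interferon-stimulated response element was searched on both strands as TTTC, any 2 bases, then TTTC, and every match is printed in capitals, in its reverse complement where it lies on the opposite strand. IFIT1 and IFITM3 each show 2 matches. Each line runs 5′ to 3′ on the gene's strand, from the RefSeq promoter table (GRCh38.p14). The first 3 genes were higher in DU145, at chr10:89392495-89392554 (plus), chr10:89327850-89327909 (plus) and chr6:29723253-29723312 (plus), and the last 3 higher in 22Rv1, at chr11:320861-320920 (minus), chr11:313975-314034 (plus) and chr1:78620350-78620409 (plus).
IFIT1: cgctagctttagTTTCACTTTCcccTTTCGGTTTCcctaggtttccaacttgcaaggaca
IFIT3: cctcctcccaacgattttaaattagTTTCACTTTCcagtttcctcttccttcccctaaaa
HLA-F: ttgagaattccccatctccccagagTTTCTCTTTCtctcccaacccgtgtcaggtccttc
IFITM3: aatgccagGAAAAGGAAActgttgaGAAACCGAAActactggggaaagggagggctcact
IFITM1: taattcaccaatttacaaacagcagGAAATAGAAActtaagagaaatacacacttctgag
IFI44L: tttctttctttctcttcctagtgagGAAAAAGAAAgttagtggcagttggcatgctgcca
Over whole windows, as for kappaB, the motif was in 3.57% of all windows and in 33 of 56 windows of listed genes (58.9%). Counted by gene, 29 of 43 genes matched by symbol had at least 1 window with it. It was in 17 of 25 matched genes higher in DU145 and in 5 of 5 matched genes higher in 22Rv1. As before, the list was written from known targets and is not independent of the motif.

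**Figure D3:**
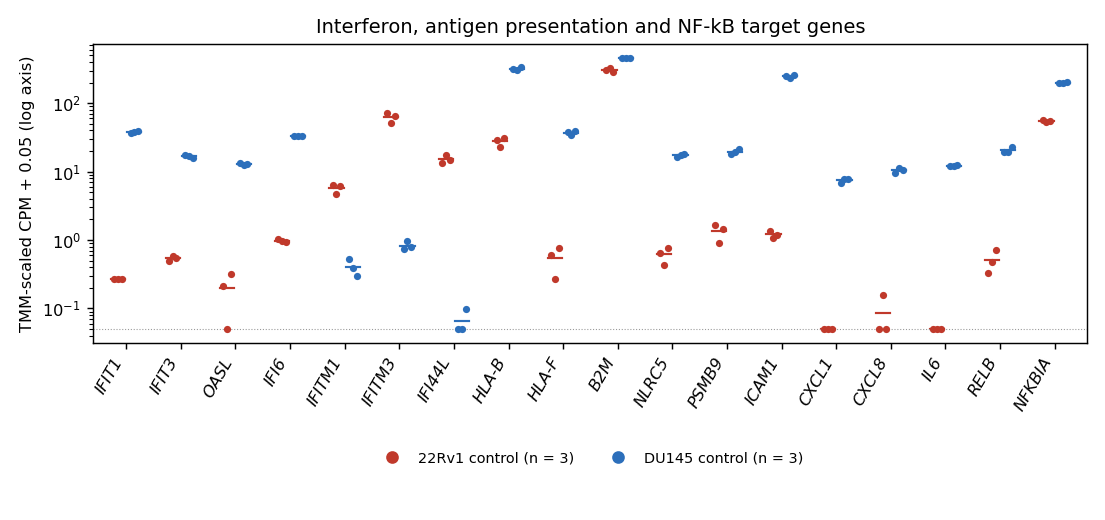
Levels of 18 interferon, antigen presentation and NF-kB target genes in the 6 control libraries (each point 1 library, each bar the mean of 3), as CPM plus an offset of 0.05 on a log axis. DU145 lies above 22Rv1 in 15 of the genes, and 22Rv1 lies above DU145 in IFITM1, IFITM3 and IFI44L.

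Growth factor receptors and ligands were higher in DU145 in 24 of 43 tested members and higher in 22Rv1 in 8 (median log2 fold change -1.82). EGFR, the epidermal growth factor receptor, was at 34.2, 33 and 30 CPM in 22Rv1 and 235, 226 and 219 CPM in DU145. Its ligands AREG and EREG were at 110 ± 2.35 and 108 ± 3.51 CPM in DU145, against 0.255 ± 0.0312 and 0.0181 ± 0.0314 CPM in 22Rv1. Receptor and ligands thus lay on the same side. ERBB3, the partner receptor without strong kinase activity, was at 79.2 ± 3.21 and 70.5 ± 1.82 CPM. Its log2 fold change was 0.17 (SE 0.07, edgeR adjusted p 0.0461). ERBB3 did not pass with DESeq2 (adjusted p 0.0795), with RLE or upper quartile factors, or with either other filter on low counts. Nor did it pass with 18 or 27 libraries fitted, or without 22Rv1 replicate 1 or any DU145 replicate. It passed under the other alternatives. MET, the hepatocyte growth factor receptor, was at 488, 491 and 459 CPM in 22Rv1 and 98.8, 97.3 and 96.1 CPM in DU145 (log2 fold change 2.30, SE 0.06). HGF, its ligand, was at 6.2 ± 1.46 CPM in 22Rv1 and at 0 in DU145. OSMR, the oncostatin M receptor, was at 12.1 ± 1.53 against 416 ± 15.7 CPM, and FGFR1 at 7.8 ± 0.446 against 122 ± 5.88 CPM.

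Tumour suppressor and repair genes mostly differed by less than 2-fold, with 25 of 36 tested members neither. The 7 higher in DU145 were 19.4% of those tested, beside 22.6% of all genes. The 4 higher in 22Rv1 were 11.1%, beside 21.9%. GSTP1, a detoxifying enzyme whose promoter is often methylated in prostate cancer, was at 0, 0 and 0.164 CPM in 22Rv1 and 137, 132 and 142 CPM in DU145, at least 836-fold higher in DU145. The lines did not overlap in GSTP1, nor in 83.9% of all tested genes. RB1 differed by 0.35 (SE 0.12, edgeR adjusted p 0.0154), and BRCA2 did not pass the test (0.06, SE 0.13, edgeR adjusted p 0.654).

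Cell cycle genes differed by less than 2-fold in most members. Of 47 tested, 38 were neither, 9 were higher in 22Rv1 and 0 higher in DU145 by the 2-fold rule with edgeR and with DESeq2. These were 19.1% and 0%, beside 21.9% and 22.6% of all genes. The median log2 fold change was 0.30. At an unadjusted edgeR p below 0.05 with no fold limit, 30 were higher in 22Rv1 and 9 higher in DU145. The 9 included cyclins and their kinases. CCND1, cyclin D1, was at 2643, 2705 and 2581 CPM in 22Rv1 and 169, 180 and 176 CPM in DU145, a log2 fold change of 3.92 (SE 0.06). CCND3, cyclin D3, was at 1073, 884 and 1067 against 53.3, 52.3 and 56.8 CPM, and the log2 fold change was 4.22 (SE 0.09). CDK6, their kinase, was at 29.9 ± 4.87 against 5.56 ± 0.363 CPM. MKI67, a marker of dividing cells, differed by -0.29 (SE 0.09, edgeR adjusted p 0.00902), and BIRC5 and BUB1 did not pass the test, although both passed without 22Rv1 replicate 2 (edgeR adjusted p 0.039 and 0.00725).

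HOX genes, which record the position of a tissue along the body axis, differed in both directions, also within a cluster. Of 33 tested, 15 were higher in DU145 (45.5%, beside 22.6% of all genes) and 7 higher in 22Rv1 (21.2%, beside 21.9%). Higher in DU145 were HOXA10 at 3.65 ± 0.647 against 36.8 ± 1.5 CPM, HOXA11 at 0.2 ± 0.062 against 13.2 ± 0.538 CPM and HOXB9 at 2.98 ± 0.434 against 30.5 ± 2.33 CPM. Higher in 22Rv1, beside HOXB13, were HOXC12 at 27.4 ± 2 against 0.0164 ± 0.0284 CPM, HOXD13 at 2.86 ± 0.345 against 0.0973 ± 0.0839 CPM, and HOXA4, HOXA7, HOXA9 and HOXB4. HOXB13 and HOXB9 are neighbours in 1 cluster, and they lay on opposite sides.

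**Figure D4:**
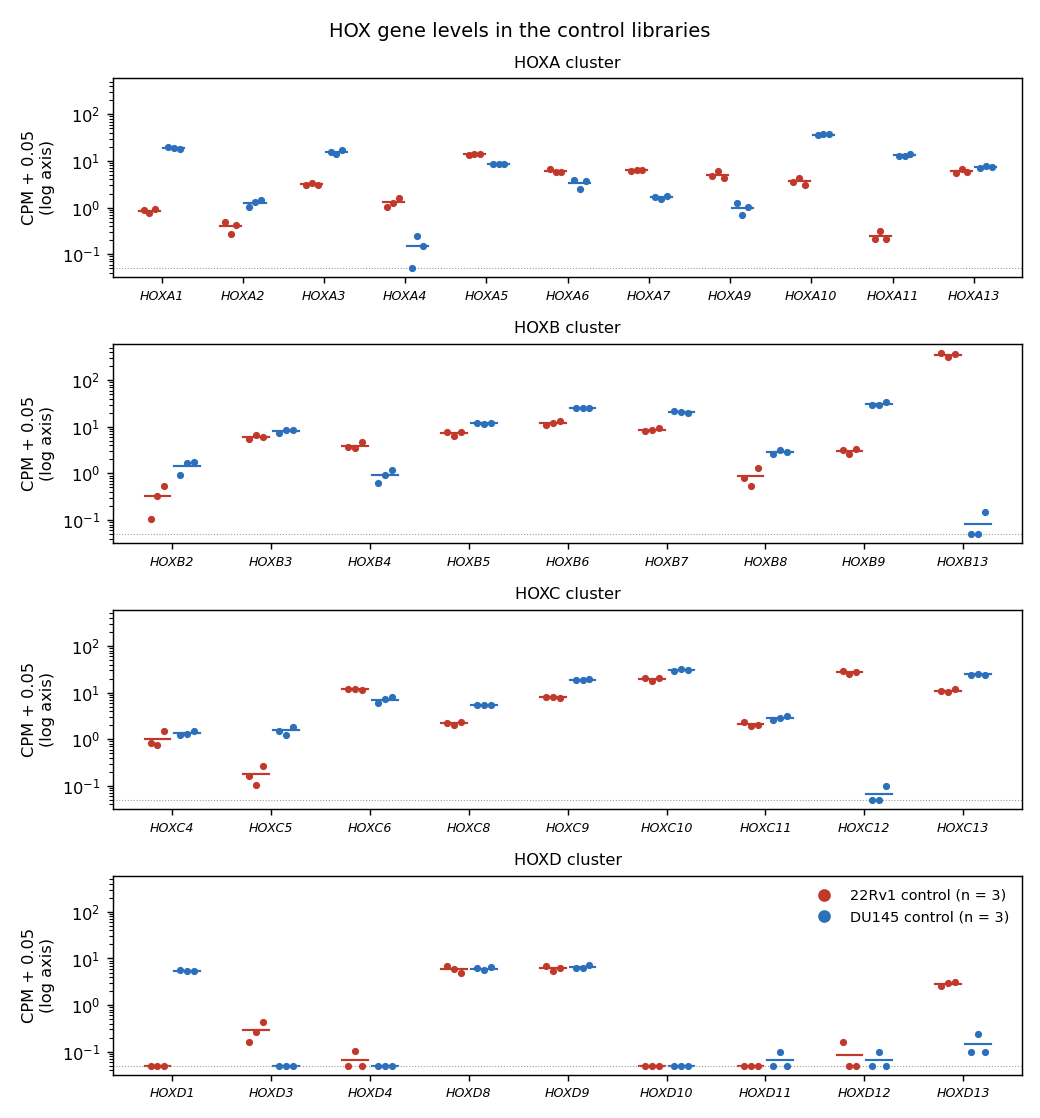
Levels of HOX genes in the 6 control libraries, by cluster and in order of gene number, as CPM plus an offset of 0.05 on a log axis (each point 1 library, each bar the mean of 3; genes on the dotted line had no count). HOXB13 and HOXC12 lie far above DU145 in 22Rv1, while HOXA10, HOXA11, HOXB9 and HOXD1 lie above 22Rv1 in DU145.

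Outside the lists, the largest folds also named genes present in 1 line only. Among genes with a mean of at least 1000 counts in the higher line, MUC13, a membrane mucin, was at 250 ± 9.61 CPM in 22Rv1 and at 0 in DU145. FOLH1, which encodes prostate-specific membrane antigen, was at 155, 178 and 154 CPM in 22Rv1 and at 0 in DU145. LPL, lipoprotein lipase, and FABP7, a fatty acid binding protein, were at 241 ± 22.4 and 231 ± 22.8 CPM in 22Rv1 and also at 0 in DU145. In the other direction AKR1B1, aldose reductase, was at 1416, 1451 and 1496 CPM in DU145 and at 0 in 22Rv1, at least 8886-fold higher. S100A16, ABCC3, GRAMD1B and COL4A1 were at 208 ± 10.1, 151 ± 4.41, 280 ± 10.3 and 117 ± 5.02 CPM in DU145, with no count in 22Rv1. By difference in mean CPM, ferritin stood out in DU145, with the light chain FTL at 472 ± 63.5 against 3979 ± 218 CPM and the heavy chain FTH1 at 813 ± 67.4 against 3117 ± 67.5 CPM. TXNRD1, thioredoxin reductase, was at 353 ± 7.34 against 2288 ± 36.1 CPM, and the actin crosslinker FLNA at 140 ± 19.3 against 1602 ± 113 CPM. On the 22Rv1 side were the fatty aldehyde dehydrogenase ALDH3A2 at 2260.3 ± 107 against 137 ± 2.93 CPM and the mitochondrial chaperone HSPD1 at 2271 ± 188 against 501 ± 7.84 CPM. FTL and FTH1 have many pseudogene copies, so their counts are uncertain.

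The same line contrast was made in cells with RIPK2 gRNA 10, the RIPK2 guide present in both lines, with 3 libraries each that the control comparison does not use. There 87.9% of 15603 genes had an adjusted p below 0.05, and 7174 (46.0%) were called by the 2-fold rule. Of 6539 control calls tested in gRNA 10 cells, 4946 (75.6%) were called in the same direction and 115 in the opposite direction; the same-direction calls were 74.0% of the 6687 gRNA 10 calls tested in controls. VIM was at 6.31 ± 0.765 CPM in 22Rv1 and 603 ± 9.74 CPM in DU145 with gRNA 10. HOXB13 was likewise high in 22Rv1 only, at 231 ± 2.89 CPM. VIM and HOXB13 thus kept their direction. In a test of the interaction over the 12 libraries, the line difference depended on the guide population in 9090 of 16241 genes (56.0%), and in 3395 of them by at least 2-fold.

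MET, CCND3 and ITGA7 were among the genes that changed sides. MET was higher in 22Rv1 in control cells (479 ± 17.5 against 97.4 ± 1.33 CPM) and higher in DU145 in gRNA 10 cells (17.3 ± 1.2 against 115 ± 4.04 CPM), an interaction of 5.04 on the log2 scale (edgeR adjusted p 1.2e-17). CCND3 went from 1008 ± 107 against 54.2 ± 2.37 CPM to 50.2 ± 0.729 against 101 ± 5.58 CPM. ITGA7, a laminin receptor chain, went from 4.48 ± 0.533 against 26.1 ± 0.88 CPM to 334 ± 4.39 against 20.7 ± 1.73 CPM. IGF1R, the insulin-like growth factor receptor, did not change sides. Its log2 fold change was -0.51 in controls and -6.79 with gRNA 10, where 22Rv1 held 2.63 ± 0.289 CPM. LPL in 22Rv1 was at 241 ± 22.4 CPM in control cells and 5.1 ± 0.335 CPM in gRNA 10 cells. IFI44L and HSD3B1, higher in 22Rv1 in controls, were too low to be tested in gRNA 10 cells. There IFI44L was at 0.294 ± 0.0797 CPM in 22Rv1 and 0.25 ± 0.0858 CPM in DU145, and HSD3B1 at 0.38 ± 0.209 and 0 CPM. RARB stayed higher in 22Rv1 with gRNA 10, at 4.75 ± 0.114 against 1.25 ± 0.0839 CPM. PMEPA1 kept its direction, with log2 fold changes of 8.11 in controls and 3.06 with gRNA 10 (interaction edgeR adjusted p 2.1e-16). KLK3 in 22Rv1 was at 20.5 CPM in control cells and 35.1 CPM in gRNA 10 cells, and it lay at or under the floor in DU145 in both, so its interaction is not given. Whether these differences come with the guide, with RIPK2 loss or with the separate growth of each population cannot be told apart.

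**Figure D5:**
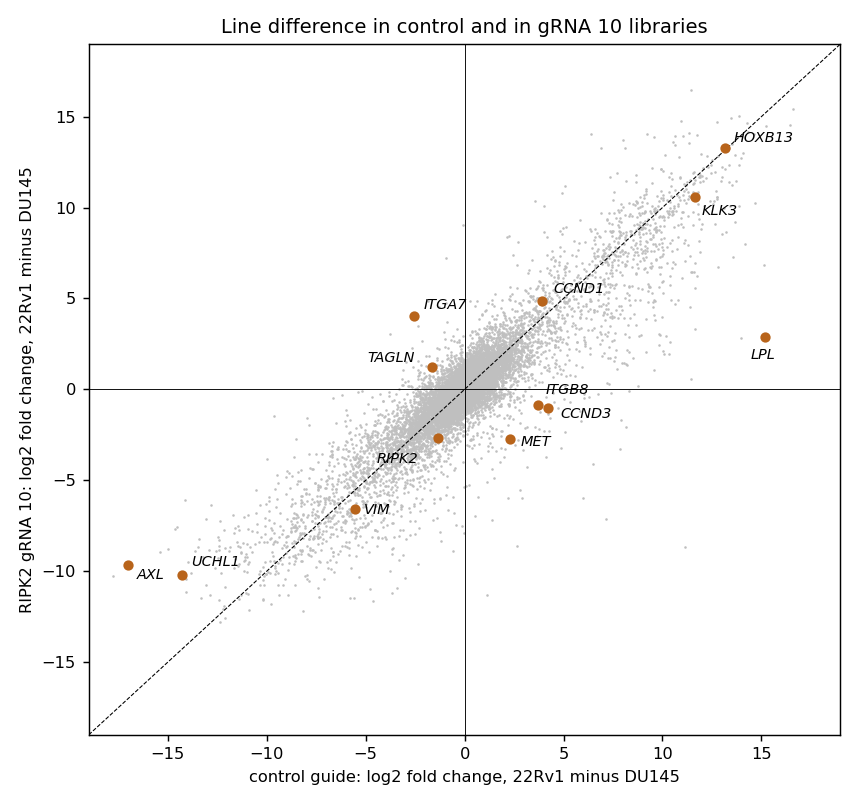
Log2 fold change between the lines (22Rv1 minus DU145) in control libraries (x axis) and in gRNA 10 libraries (y axis), each point 1 gene tested in both, with the dashed line marking equal differences. HOXB13, VIM and AXL lie in the same quadrant in both, whereas MET (2.30 and -2.74), CCND3 and ITGA7 have opposite signs; fitted values of genes at the floor are not bounds.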

How the data were processed

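RNA was measured in 6 control libraries, 3 per line. The deposited data hold, for each line, whole-number counts of reads by gene symbol, per the file headers. The submitters' processing notes name FastQC, STAR, edgeR and hg38, with no versions; the counting program, its strand setting and the annotation are not given in the sources used here, so reads of overlapping antisense genes may not be told apart. Symbols listed more than once were summed (6 in the 22Rv1 table, 2 in that of DU145). The tables were joined on symbol (21550 in both, 26361 in either); a symbol missing from 1 table was set to 0 counts, since every deposited row held at least 1 count. This concerned 2829 symbols listed for 22Rv1 only and 1982 for DU145 only.

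Analysis used edgeR 4.0.16 in R 4.3.3 on the 6 libraries, with filterByExpr (minimum count 10, minimum total 15), TMM factors (0.967 to 1.03), the robust quasi-likelihood F test (two-sided) and Benjamini-Hochberg adjustment over 15494 genes. CPM values are TMM-scaled. The common biological coefficient of variation was 7.88%. No pair of replicates agreed within counting noise (chi-square per degree of freedom 2.06 to 19.7). Standard errors were derived from the F statistic. The gRNA 10 contrast was fitted alone, and the interaction over 12 libraries.

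The comparison and the 18 gene lists (666 genes) were chosen with earlier results of these data known. Named genes were KLK3, VIM and RIPK2; up to 3 per list and direction with the largest fold among called members with a mean of at least 100 counts in the higher line and no overlap of the lines; and, on the same conditions with at least 1000 counts, the 8 largest folds and the 8 largest CPM differences in each direction (mitochondrially encoded genes apart). Some genes that the rule or the lists hold are not reported here. Every other gene in the text was chosen after its values were seen. Coordinates of genes are from GENCODE 29.

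On simulated counts (15064 genes) the test recovered 41 of 50 genes changed 1.5-fold, 49 of 50 at 2-fold, 50 of 50 at 4-fold and 46 of 50 at 0.5-fold, with 8 false calls. Only 50 genes were changed at each fold, whereas 82.0% of genes passed the test in the real comparison. These figures may therefore not carry over to it. Alternatives were RLE or upper quartile factors, DESeq2 1.42.0, other filters, other sets of libraries, a replicate block and leaving out each library.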

Additional observations from a re-analysis of the deposited data

Results flagged for a closer look

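The difference between the lines depended on the guide population in 9090 of 16241 genes (56.0%) tested with edgeR's interaction test. Nearly all named genes were picked by or after their values, so counts among them are no result about these genes as a set. The share of opposite signs over all genes was counted by the 2-fold rule only, with 115 of 6539 control calls. Of 233 named genes tested, 148 passed the interaction test, and 13 had line differences of opposite sign that each passed an adjusted p of 0.05. Their interactions, the log2 line difference (22Rv1 minus DU145) in control cells minus that in gRNA 10 cells, are given as values.

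Among cell cycle and tumour suppressor genes the interaction was 5.22 for CCND3, 2.63 for CDK6, 0.51 for RB1 and -2.56 for CDKN1A, the p21 inhibitor. Among integrins it was -6.56 for ITGA7, 4.58 for ITGB8, 5.61 for ITGA9 and 6.21 for ITGA11. The receptor gene MET had 5.04. The inflammatory genes PTGS2 and SOD2 had 3.07 and 1.88, the kinase gene RIPK1 had -0.58 and TAGLN, an actin-binding protein of smooth muscle, had -2.87. RB1 and RIPK1 differed by less than 2-fold in both populations.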

How the results depend on the processing

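The counts of 2-fold calls ran from 6516 to 8689 over the alternatives, except when at least 10 counts were required in every library, which leaves out genes absent from 1 line by construction: it gave 4264 calls, 2000 higher in 22Rv1 and 2264 higher in DU145. Under that filter, members higher in 22Rv1 and in DU145 numbered 3 and 16 for mesenchymal genes, 4 and 3 for neuroendocrine genes, 4 and 13 for growth factor receptors, 2 and 10 for integrins, 3 and 9 for HOX genes, 0 and 17 for NF-kB targets, 1 and 1 for steroid enzymes and 0 and 1 for stromal markers; 7 lineage factors, 14 androgen-induced genes, 0 protease genes, 1 RIPK2 pathway gene and 3 interferon genes were higher in 22Rv1, and 7 keratin and 2 epithelial genes in DU145. With no filter, steroid enzymes gave 7 and 4, stromal markers 7 and 6, and 1 cell cycle gene was higher in DU145. DESeq2 gave 6 stromal markers higher in 22Rv1. With 18 libraries fitted, 7 steroid enzymes and 5 stromal markers were higher in 22Rv1 and 1 cell cycle gene in DU145; with 27 libraries, 6 steroid enzymes, 6 and 5 stromal markers and 1 cell cycle gene. Leaving out 1 library gave 0 to 1 cell cycle genes and 1 to 2 lineage factors higher in DU145. The causes were not tested.

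On genes shared with the main fit, no alternative moved the median by over 0.03 on the log2 scale. Over all genes tested, the median was 0.107 with DESeq2 and 0.112 with no filter (23713 genes each), against 0.042 in the main fit. Among genes that did not pass the test, the sign turned when 1 library was left out for EPCAM (range -0.126 to 0.0314), BRCA2 (-0.121 to 0.169), SRD5A1 (-0.0607 to 0.0341), TAB3 (-0.12 to 0.067) and TIMP1 (-0.116 to 0.0329). Calls of ERBB3, MAP2K7, MAP3K7, SOD2, RB1 and MKI67, all under 2-fold, were lost in 20 combinations of gene and setting; MKI67 was lost without 22Rv1 replicate 2 or DU145 replicate 1 (adjusted p 0.0933 and 0.0638). TAB2 passed with the replicate block (adjusted p 0.0469).

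Replicate numbers are shared by the lines in the titles only. Same-numbered libraries did not deviate together (correlations -0.05, 0.11 and 0.06), and 22Rv1 replicate 1 correlated best with DU145 replicate 3 (0.13). With the replicate block, 6889 genes were called by 2-fold, 3384 higher in 22Rv1 and 3505 higher in DU145, and 8950 genes passed the interaction.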

Other observations

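Line differences were unevenly spread over chromosomes, counted over genes whose symbol is found once in GENCODE 29. In control cells the median log2 fold change (22Rv1 minus DU145) was highest on chromosomes 4 (0.55, 565 genes), 3 (0.41, 881 genes) and X (0.39, 523 genes), and lowest on chromosomes 21 (-0.35, 152 genes), 17 (-0.31, 904 genes) and 14 (-0.28, 483 genes). On chromosome 4, 207 genes were higher in 22Rv1 and 113 higher in DU145, and on chromosome 17 the counts were 142 and 256. Over all tested genes the shares were 21.9% higher in 22Rv1 and 22.6% higher in DU145. With gRNA 10 the median of chromosome 7 was 0.48, against -0.20 in control cells, and that of chromosome 3 was -0.13, against 0.41. Chromosome 17 had nearly the same median in both, at -0.31 and -0.33. Copy number was not analysed here.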
